A study of Mus musculus with 6 samples.

Results

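The miR-101 family was followed through small RNA libraries of mouse brain cortex, 3 from Fmr1 knockout (KO) and 3 from wild-type (WT) mice. Its members were taken by name from the table of mature microRNAs (miRNAs), namely mmu-miR-101a-3p, mmu-miR-101b-3p, mmu-miR-101a-5p and mmu-miR-101c (the prefix for mouse is left out from here on), which are 4 of the 1182 features and all of the rows named miR-101. The mice were untreated adult males of matched age and differed, as labelled, in genotype at Fmr1. The sources used here give neither the strain nor the Fmr1 allele, nor whether a library came from 1 animal or from a pool. The table holds mature miRNAs, so the loss of Fmr1 itself could not be checked in it.

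A miRNA is cut from a hairpin transcript by Drosha and Dicer, and 1 arm of the duplex, the guide, is loaded into an Argonaute protein while the other, the passenger, is mostly degraded. The guide finds messenger RNAs mainly through its seed, bases 2 to 8 from the 5′ end, and represses them. In the miR-101 family the 3p arm is the guide. In the developing mouse hippocampus miR-101 is known to restrain network excitability, with targets that include the chloride importer Slc12a2, the axonal motor Kif1a and the membrane scaffold Ank2, and in other tissues it is known for repressing Ezh2, a histone methyltransferase. The comparison here asks whether these regulators differ in level in cortex without Fmr1, which encodes the RNA-binding translational regulator FMRP.

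The mature sequences are shown because the 3p products are nearly the same molecule, which bears on every count below. All 4 names matched RefSeq entries (GRCm38.p6), and the capitals mark bases 2 to 8.
miR-101a-3p: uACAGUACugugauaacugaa
miR-101b-3p: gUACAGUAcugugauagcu
miR-101c: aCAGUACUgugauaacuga
miR-101a-5p: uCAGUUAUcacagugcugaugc
The annotated miR-101c lies wholly inside miR-101a-3p, from its base 2 to its base 20. The annotated miR-101b-3p starts 1 base earlier than miR-101a-3p, and over the 18 bases that align the pair differ by 1 substitution, A16G (miR-101a-3p base, position from its 5′ end, miR-101b-3p base). The 3 annotated 3p products therefore read the same stretch in 3 registers, and each has a different heptamer at bases 2 to 8. Which 5′ ends the reads had is not shown by a table of counts per name.

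The hairpins of miR-101a and miR-101b are shown with both arms in capitals, 5p first.
Mir101a: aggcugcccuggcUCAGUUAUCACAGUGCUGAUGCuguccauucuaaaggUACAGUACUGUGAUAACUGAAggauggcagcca
Mir101b: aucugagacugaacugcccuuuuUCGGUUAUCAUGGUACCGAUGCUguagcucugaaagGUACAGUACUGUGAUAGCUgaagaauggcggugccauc
The hairpins share a run of 20 bases that ends just before the substituted base, so a read trimmed short of it cannot be assigned to either gene. In the miR-101a hairpin the base before miR-101a-3p is the same G that opens the annotated miR-101b-3p, so the offset between the annotated starts is not a difference between the genes. Mir101a lies at chr4:101346945-101347027 on the minus strand, in an exon of the long noncoding RNA gene E130102H24Rik. Mir101b lies at chr19:29135279-29135375 on the plus strand, in an intron of Rcl1, a gene of ribosomal RNA processing. Mir101c is annotated at chr9:3038669-3038743 on the minus strand, outside any other annotated gene (GENCODE M21, GRCm38).

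Among the 970 table entries with a RefSeq mature sequence, miR-144-3p was the single one besides miR-101a-3p with the hexamer ACAGUA at bases 2 to 7, and 7 held the hexamer anywhere.
miR-144-3p: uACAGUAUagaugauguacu
This erythroid miRNA had 11, 11 and 9 reads in the KO libraries and 10, 11 and 13 reads in the WT libraries. At 0.655 to 0.925 CPM it was far below miR-101a-3p in every library.

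Matches to the 3 annotated seeds were looked for in the 3′ untranslated region (UTR) of Fmr1 and of 7 genes known from work on miR-101, picked after the family's values were known. The letters searched, on the sense strand, were GUACUGU for miR-101a-3p, UACUGUA for miR-101b-3p and AGUACUG for miR-101c, which overlap one another. Human FMR1 has been reported as a target of miR-101. The mouse Fmr1 UTR, of 2288 bases, held 0 matches to GUACUGU, 1 to UACUGUA and 0 to AGUACUG. The letters UACUGUA also pair with bases 2 to 7 of miR-101a-3p and end in the A that lies opposite its first base. Of all UTRs at least as long, 17.9% held UACUGUA in their first 2288 bases, 14.4% held GUACUGU and 13.3% held AGUACUG. The Fmr1 match, on the plus strand at chrX:68717283-68717304, is printed as DNA with the matching letters in capitals, beside both matches to GUACUGU in the short Ezh2 UTR (minus strand, chr6:47530474-47530495 and chr6:47530419-47530440).
Fmr1: gttcagtttaaaaTACTGTAga
Ezh2, first: tcaggaaccttgaGTACTGTgg
Ezh2, second: ctgaatttgcaaaGTACTGTaa
The letters GUACUGU occurred 2 times in the 402 bases of Ezh2. Of UTRs at least that long, 2.8% held them 1 time or more in their first 402 bases. Background shares below are counted the same way, over the length of each gene's UTR. GUACUGU occurred 1 time each in Kif1a and Slc12a2, whose background shares were 18.9% and 17.3%. It occurred 0 times in Ank2, whose UTR held UACUGUA 1 time (background 18.4%). Ptgs2, the inducible cyclooxygenase, and App, the amyloid precursor, held GUACUGU 1 time each, and Atxn1 held it 3 times in 7300 bases (background shares 14.9%, 5.76% and 38.4%). The letters UACUGUA occurred 0 times in Kif1a (background 22.4%) and 1 time each in Ezh2, Slc12a2 and Ptgs2 (3.46%, 21.5% and 19%). App held them 2 times and Atxn1 3 times (7.73% and 47.5%). The letters AGUACUG occurred 2 times each in Ezh2 and Atxn1 (2.23% and 40.9%) and 0 times in Kif1a, Slc12a2, Ank2, Ptgs2 and App. A match is a description of these letters, and no messenger RNA was measured here.

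The libraries held 11182888 to 14385332 reads in KO and 13225790 to 15733876 reads in WT. Levels are given in CPM, reads scaled to a common library total after TMM normalization, with factors from 0.8265 to 1.092. The neuronal miRNAs miR-9-5p, miR-124-3p and miR-128-3p summed to 280959 to 423211 CPM in KO libraries, against 309475 to 340072 CPM in WT libraries. Such a sum does not tell cortex from other brain regions. In KO replicate 2, miR-9-5p was the highest of all libraries at 316153 CPM, while miR-124-3p was the lowest at 1297 CPM. Of the markers of liver and muscle, miR-122-5p stayed between 2.61 and 5.13 CPM over all libraries. The muscle marker miR-1a-3p ran from 206.8 CPM in KO replicate 2 to 283.8 CPM in KO replicate 1. For miR-133a-3p, KO replicate 1 was the lowest library (1.84 CPM) and KO replicate 3 the highest (5.44 CPM). Levels of miR-206-3p ran from 1.09 CPM in KO replicate 2 to 3.62 CPM in KO replicate 1. The KO libraries differed more from one another than the WT libraries did, with chi-square statistics per degree of freedom of 354.2 to 617.7 between KO pairs and 30 to 37.3 between WT pairs.

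The family was abundant in cortex, and almost all of it was the guide strand of 2 genes. The rank by mean CPM over the 541 miRNAs that passed the count filter was 34 for miR-101a-3p and 49 for miR-101b-3p, while miR-101c stood at 492 and miR-101a-5p did not pass. The 3p products together made up 0.495%, 0.464% and 0.672% of all reads in the KO libraries and 0.445%, 0.522% and 0.399% in the WT libraries. The libraries were size-selected and ligation favours some RNA ends, so the order of members is an order of reads. Whether reads per molecule depended on length was not tested.

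None of the 3 family members that passed the count filter, miR-101a-3p, miR-101b-3p and miR-101c, was called between KO and WT cortex by the edgeR quasi-likelihood test with Benjamini-Hochberg adjustment over all 541 tested miRNAs. The means of both abundant guide strands lay above WT in KO, more so for miR-101a-3p. Of the 541 miRNAs, 0 were called (0%) at an adjusted p of 0.05, and DESeq2 and limma-voom on the same miRNAs also called 0. At an unadjusted p under 0.05 there were 35 (6.47%) with edgeR, 38 with DESeq2 and 33 with limma-voom, and none of the 3 was among the 35.

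The main guide strand, miR-101a-3p, had 47306, 49308 and 56512 reads in the KO libraries, which is 3229, 4147 and 4658 CPM. In the libraries from WT it had 46796, 49718 and 44950 reads, or 3067, 3661 and 2956 CPM. In CPM, KO replicates 2 and 3 stood above every WT library. KO replicate 1 lay between WT replicates 1 and 2, so the groups overlapped. The place of KO replicate 2 depends on its TMM factor of 0.8265. As a share of all reads, with no such factor, the 3p products made up 0.464% in KO replicate 2. That lay below KO replicate 1 (0.495%) and WT replicate 2 (0.522%). The mean was 4011 ± 725 CPM in KO cortex, against 3228 ± 379 CPM in WT cortex (SD, n = 3 each). The log2 fold change was 0.31 (SE 0.18, 95% interval -0.091 to 0.72, edgeR adjusted p = 0.749).

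The smallest count of miR-101a-3p, 44950 reads in WT replicate 3, carries a counting error of 0.472%, against a spread between libraries of 18.1% in KO and 11.7% in WT. No molecular identifiers are described, so PCR copies count as reads, and counting errors and binomial intervals cover counting alone.

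The second guide strand, miR-101b-3p, had 19166, 17377 and 18635 reads in KO replicates 1 to 3 (1308, 1462 and 1536 CPM). In WT replicates 1 to 3 it had 19186, 19330 and 17813 reads (1258, 1423 and 1172 CPM). In CPM the libraries stood in the same order as for miR-101a-3p, with KO replicates 3 and 2 highest, and the groups overlapped. The mean was 1435 ± 116 CPM in KO cortex, against 1284 ± 128 CPM in WT cortex (SD, n = 3 each). The difference was 0.16 log2 units (SE 0.15, 95% interval -0.19 to 0.51, edgeR adjusted p = 0.802). After TMM scaling, its SD among KO libraries was 0.119 log2 units, and 6.47% of tested miRNAs had a smaller one (median 0.396). Among WT libraries its SD was 0.142 log2 units, and 50.3% had a smaller one (median 0.14). For miR-101a-3p the SD was 0.27 log2 units in KO and 0.165 in WT, with 29.9% and 55.3% of tested miRNAs below it. The KO values depend on the TMM factor of KO replicate 2, 0.8265.

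The third 3p product, miR-101c, had 8, 12 and 21 reads in the KO libraries and 11, 15 and 15 reads in the WT libraries. In CPM these are 0.546, 1.01 and 1.73 in KO and 0.721, 1.1 and 0.987 in WT, so the KO libraries held both the lowest and the highest value. Its log2 fold change of 0.21 (SE 0.48, 95% interval -0.89 to 1.3, edgeR adjusted p = 0.894) was below 0, at -0.27, without KO replicate 3 and, at -0.030, with library weights. It made up 0.012% to 0.0279% of the 3p reads of a library. Because its sequence is contained in miR-101a-3p, reads of miR-101a-3p that lost their end bases could be counted under its name, and the deposited table does not separate these sources.

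The passenger strand miR-101a-5p had 1, 0 and 9 reads in the KO libraries and 4, 4 and 4 reads in the WT libraries. The 0 in KO replicate 2 allows up to 0.252 CPM (3 counts), close to the WT values of 0.262 to 0.295 CPM. It failed the count filter, and its fit without a filter gave a log2 fold change of -0.023 (SE 0.91, edgeR adjusted p = 0.995). Summed over libraries, the 5p arm held 0.00653% of miR-101a reads in KO (95% Clopper-Pearson interval 0.00313% to 0.012%) and 0.00848% in WT (0.00438% to 0.0148%). Of the 10 KO reads 9 came from KO replicate 3, and without it the share was 0.00104% (interval 2.62e-05% to 0.00577%), a split made after seeing the data. In every library both 3p guide strands exceeded it by far, and miR-101c had more reads than miR-101a-5p in all 6 libraries.

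**Figure D1:**
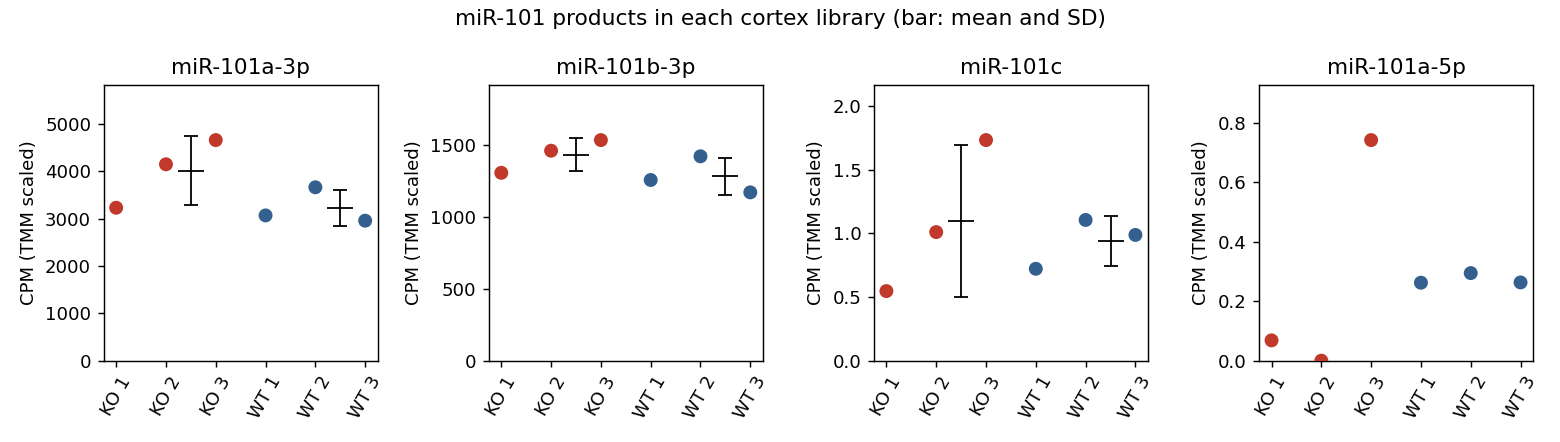
Level of each miR-101 product (y axis, CPM after TMM scaling, separate scale per panel, from 0) in the KO libraries (red) and WT libraries (blue), with the group mean and SD in black (not drawn for miR-101a-5p). For miR-101a-3p, KO replicates 2 and 3 (4147 and 4658 CPM) sit above all WT libraries and KO replicate 1 (3229 CPM) among them.

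**Figure D2:**
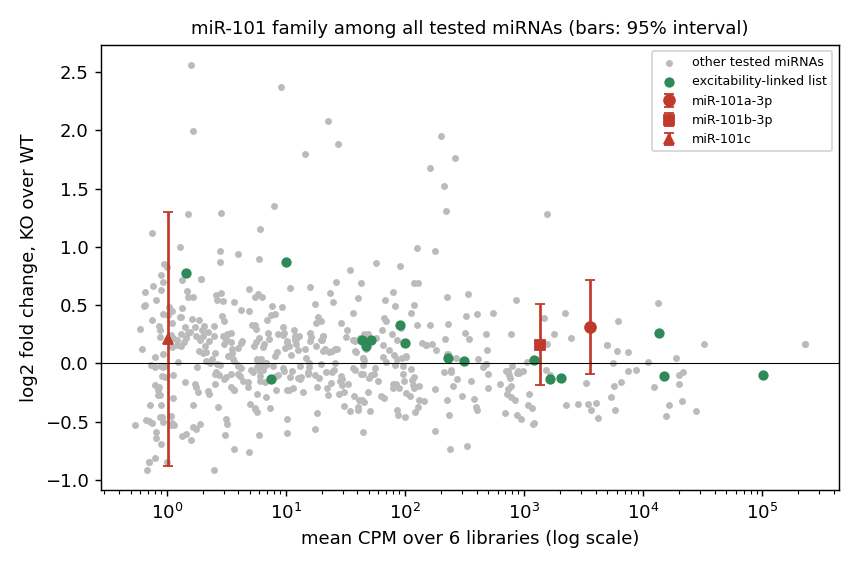
Log2 fold change of KO over WT (y axis) against mean CPM on a log scale (x axis) for the 541 tested miRNAs, with the tested miR-101 products in red and the excitability-linked list in green. The 95% intervals of miR-101a-3p, miR-101b-3p and miR-101c all cross 0.

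Ratios within a library do not depend on the scaling of libraries. The share of miR-101b-3p in the summed reads of miR-101a-3p and miR-101b-3p was 28.8%, 26.1% and 24.8% in the KO libraries and 29.1%, 28% and 28.4% in the WT libraries. KO replicates 2 and 3 were below all of them, while KO replicate 1 was among them. The 95% Clopper-Pearson interval of KO replicate 3, 24.5% to 25.1%, did not reach that of WT replicate 2, 27.7% to 28.3%. The mean share was 26.6% ± 2.06 in KO cortex, against 28.5% ± 0.549 in WT cortex (SD, n = 3 each), a difference of -1.92 percentage points with an exact two-sided permutation p of 0.3, where the smallest this design allows is 0.1. For the arm ratio, log2 of 3p over 5p reads of miR-101a, with the 0 set to the floor of 3 counts, the mean was 14.1 ± 1.46 in KO cortex, against 13.5 ± 0.0732 in WT cortex (SD over 3 libraries each), with an exact permutation p of 0.7. That floor makes the ratio of KO replicate 2 a lower bound and gives this library more 5p reads than KO replicate 1, which had 1. With 1 read added to each arm instead, the difference was 0.99 (exact permutation p = 0.4). With the floor, the difference of 0.53 turned to -0.21 without KO replicate 1. This value rests in part on the 3 counts put in.

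**Figure D3:**
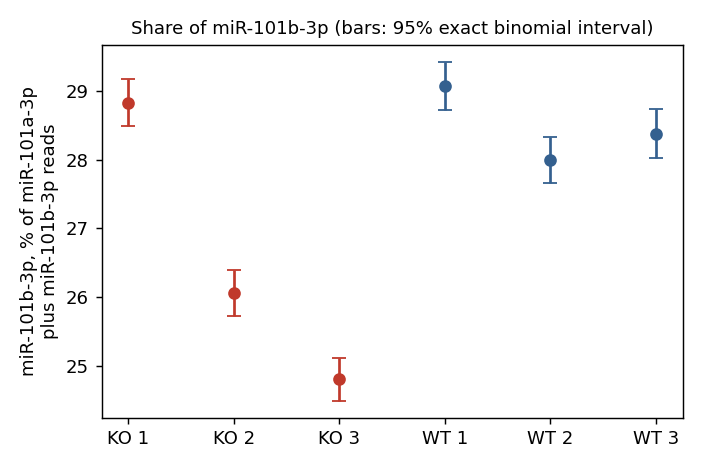
Share of miR-101b-3p (y axis, percent of miR-101a-3p plus miR-101b-3p reads, axis not from 0) in each KO library (red) and WT library (blue), with 95% exact binomial intervals. The KO libraries run from 24.8% to 28.8% and the WT libraries from 28% to 29.1%.

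Across the 6 libraries both guide strands moved together. Pearson's r between log2 CPM of miR-101a-3p and miR-101b-3p was 0.961 (exact permutation p = 0.00278, the smallest these permutations can give) and Spearman's rho was 1 (exact permutation p = 0.00278). It was the single pair of members compared, so its adjusted p is the same. Without KO replicates 3 and 2, the libraries farthest from the median, r was 0.973 over the other 4. Both values of a library share its scaling factor and may share reads. On the deposited TPM, where both are divided by the library total and no TMM factor enters, r was 0.916 (exact permutation p = 0.0139) and rho 0.943 (exact permutation p = 0.0167), and r was 0.652 without KO replicate 3 and WT replicate 3, so that on this scale the relation rests largely on those libraries. Each genotype has 3 libraries, too few for a value within it.

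The miRNAs outside the family whose log2 CPM over the 6 libraries followed miR-101a-3p most closely were miR-26a-2-3p, the minor arm of a miR-26a hairpin (r = 0.992, rho = 1), and the neuronal miR-153-3p (r = 0.979, rho = 1). After them came miR-29a-5p, the minor arm of miR-29a (r = 0.954, rho = 0.943), and the leukocyte miRNA miR-142a-3p, whose counts equalled those of miR-142b (both r = 0.941, rho = 0.829). The closest of them, miR-26a-2-3p, rests on few reads, 13, 21 and 29 in the KO libraries and 13, 20 and 11 in the WT libraries. These are the highest of many correlations over 6 libraries and carry no p. Among all 540 other tested miRNAs, miR-101b-3p took rank 3. Without KO replicates 3 and 2 the values of r were 0.983, 0.986, 0.688 and 0.813 in that order.

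For miR-101b-3p the closest outside the family were miR-26a-2-3p (r = 0.972), miR-592-5p (r = 0.939), miR-153-3p (r = 0.918), miR-29a-5p (r = 0.915) and miR-455-5p (r = 0.907). Levels of miR-153-3p were 60.7, 87 and 88.8 CPM in KO replicates 1 to 3, against 57.8, 68.8 and 57.7 CPM in WT replicates 1 to 3. As with the miR-101 guides in CPM, KO replicates 2 and 3 stood above the WT libraries and KO replicate 1 between them. Of these miRNAs, miR-29a-5p alone had groups that did not overlap, as 15.7% of all tested miRNAs did, at 5.19, 7.91 and 9.97 CPM in the KO libraries, against 4.2, 4.79 and 3.35 CPM in the WT libraries. Its log2 fold change was 0.90 (SE 0.30, edgeR adjusted p = 0.694).

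**Figure D4:**
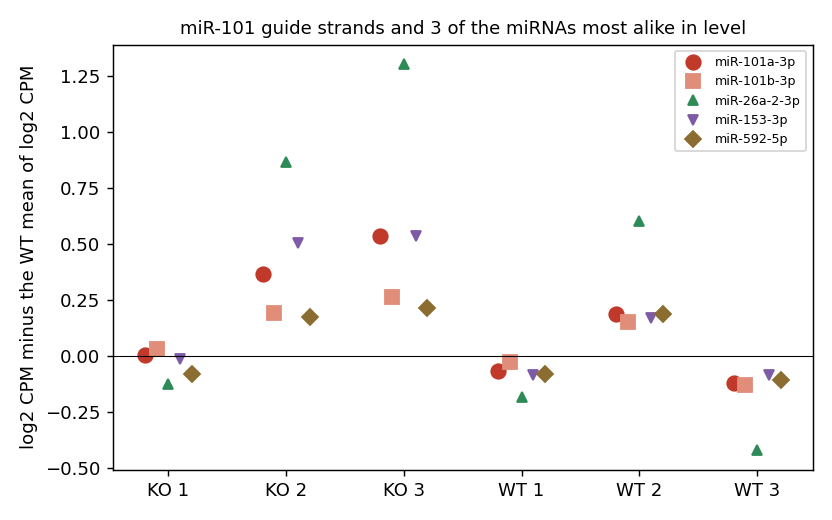
Log2 CPM of miR-101a-3p, miR-101b-3p, miR-26a-2-3p, miR-153-3p and miR-592-5p minus the mean of the WT libraries (y axis) in each library (x axis, KO left of WT). KO replicates 2 and 3 lie above KO replicate 1 for all 5, and WT replicate 2 is the highest WT library for each.

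Markers of other cell types were set beside this order of libraries. The epithelial and olfactory list (5 of 5 in the table, miR-141-3p at 0 in KO replicate 1) summed to 15.7, 904.3 and 970.1 CPM in KO replicates 1 to 3, against 154.2, 83.9 and 290 CPM in WT replicates 1 to 3. In CPM it was thus high in the same pair of KO libraries as miR-101a-3p. WT replicate 2, the highest WT library for miR-101a-3p, was the lowest WT library for the list. By share of all reads, the miR-101 3p products in KO replicate 2 (0.464%) lay below those in KO replicate 1 (0.495%). Erythroid markers (4 of 4) summed to 80.3 to 120.6 CPM over KO libraries and 75.4 to 83.4 CPM over WT libraries, with KO replicate 3 the highest. Microglia and leukocyte markers (4 of 4) summed to 86.6 to 131.4 CPM (KO) and 88.1 to 102.1 CPM (WT), and choroid plexus and ciliated markers (4 of 4) to 1005 to 2093 CPM (KO) and 959.5 to 1029 CPM (WT), in both cases with KO replicate 3 the highest of all libraries. Oligodendrocyte markers (2 of 2) summed to 550.7 to 788.2 CPM (KO) and 760.2 to 872.7 CPM (WT), with KO replicate 3 the lowest, and endothelial and mural markers (3 of 3) to 38420 to 44503 CPM (KO) and 35170 to 42527 CPM (WT). The part of these cells in the levels of miR-101 was not tested. In bulk tissue, fewer cells of a type and less RNA per cell cannot be told apart.

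Other miRNAs tied to neuronal excitability or seizures were read from the same fit. All 16 on the list passed the count filter, 0 were called, and 0 had groups that did not overlap, against 15.7% of all tested miRNAs. Fold changes lay above 0 for 11 and below 0 for 5, with a median log2 fold change of 0.094 on the list and 0.027 over all 541 tested miRNAs, of which 284 lay above 0. The neuron-enriched miR-128-3p, which restrains motor excitability in mice, had 96339, 105761 and 90410 CPM in KO replicates 1 to 3, against 99663, 101759 and 111894 CPM in WT replicates 1 to 3. Its groups overlapped (log2 fold change -0.099, SE 0.13, edgeR adjusted p = 0.86).

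The next most abundant on the list were miR-129-5p, with a mean of 14530 ± 1743 CPM in KO cortex, against 15670 ± 1030 CPM in WT cortex, and miR-218-5p, with 14860 ± 3547 CPM in KO cortex, against 12410 ± 557 CPM in WT cortex (SD, n = 3 each). For miR-22-3p the mean was 1948 ± 516 CPM in KO cortex, against 2127 ± 212 CPM in WT cortex, so of the whole list miR-101a-3p was exceeded by miR-128-3p, miR-129-5p and miR-218-5p. The largest fold changes were those of miR-324-5p, which targets the potassium channel Kv4.2 gene Kcnd2, and of miR-211-5p. Levels of miR-324-5p were 7.78, 6.06 and 25.1 CPM in KO replicates 1 to 3, against 6.16, 7.95 and 7.17 CPM in WT replicates 1 to 3, with KO replicate 3 far above the rest. Its log2 fold change was 0.87 (SE 0.50, edgeR adjusted p = 0.749), and that of miR-211-5p was 0.77 (SE 0.48, edgeR adjusted p = 0.752). The value of miR-211-5p rests on few reads, 15, 20 and 34 in KO libraries and 24, 12 and 11 in WT libraries. This miRNA was also on the list of choroid plexus and ciliated markers. Without KO replicate 3, 560 miRNAs were tested and 18 were called, none of them a miR-101 product. Of the 16 on this list 1 was called, miR-146a-5p (log2 fold change 0.60, SE 0.14, edgeR adjusted p = 0.0383).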

How the data were processed

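Per the labels' protocols, total RNA of cortex was ligated to adaptors at both ends, amplified, size-selected and sequenced as single-end reads. The submitters' processing notes name Bowtie, DESeq2 and mm10. Neither their versions and roles nor the miRBase release, mismatch limit, strand setting or handling of multiply matching reads were given in the sources used here. Reads that match miR-101a and miR-101b equally may therefore have been assigned, split or counted for both. Some pairs of names outside the family had equal means, such as miR-467a-5p and miR-467b-5p (each 158.9 CPM in KO and 142.4 CPM in WT). How the reads of miR-101 were counted was not tested.

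The deposited file holds unnormalised whole-number counts per mature miRNA. It also holds TPM values, which equal the deposited counts scaled to a common library total within 4.9e-10. Column names were matched to sample titles by number, and 0 columns belonged to no sample. Genotypes are the labelled ones. Replicate numbers follow accession order and pair nothing. The labels do not tie libraries to separate animals, so p-values measure the spread between these libraries.

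Counts were fitted in R 4.3.3 with edgeR 4.0.16 (filterByExpr at a minimum count of 10, TMM, robust quasi-likelihood test, Benjamini-Hochberg adjustment over 541 miRNAs, 5 of them predicted). Log2 CPM used a prior count of 2. Ratios and correlations were tested by exact permutation in SciPy 1.17.1. The fit was tested on simulated data. Alternatives used DESeq2 1.42.0, limma 3.58.1, other scalings, no filter, log2(TPM + 1) and each library left out. The named miRNAs are the members, the 5 miRNAs most correlated with each abundant guide strand, those sharing bases 2 to 7, and the most abundant and most changed of the excitability list. The family, the lists and this rule were chosen with earlier results of these data known. UTRs are those of 1 GENCODE M21 transcript per gene (21025 genes), the best APPRIS level and then the longest UTR.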

Additional observations from a re-analysis of the deposited data

How the results depend on the processing

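The log2 fold change of miR-101a-3p stayed above 0 under all 15 alternatives run, from 0.21 to 0.46, with adjusted p-values from 0.288 to 0.978, and that of miR-101b-3p under all 15, from 0.11 to 0.27 (adjusted p 0.468 to 0.978). With a library left out, miR-101a-3p ranged from 0.21 without KO replicate 3 to 0.46 without KO replicate 1, where its unadjusted p was 0.0193, and miR-101b-3p from 0.11 to 0.27. The value of miR-101c was -0.030 with library weights and ranged from -0.27 to 0.56 over left-out libraries. With the 0 set to 3 counts, the difference in the 3p to 5p ratio of miR-101a ranged from -0.21 to 1.24 over left-out libraries. The difference in the share of miR-101b-3p ranged from -3.06 to -1.04 percentage points. The mean log2 CPM of miR-101a-5p differed by -0.47 and ranged from -1.26 to 0.043, a value that rests on 22 reads. The cause of these turns was not tested. The count of called miRNAs ranged from 0 to 18 over left-out libraries, and that of the excitability list from 0 to 1. Both were highest without KO replicate 3 (560 miRNAs tested). All other settings called 0 of both. The scalings of the correlation between the guide strands were added after seeing the data, and r lay between 0.916 and 0.98. DESeq2 and limma-voom gave no value for miR-101a-5p, which failed the count filter. No paired analysis was possible because the labels give no replicate numbers that tie a KO library to a WT library. Counting error per library reached 35.4% for miR-101c, against a spread of 54.5% in KO and 21% in WT, and for the abundant guide strands it was at most 0.759%, against spreads of 8.1% to 18.1%.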
